A study of Mus musculus with 24 samples.

Results

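The 10 genes described here are chemokines, small secreted or membrane-tethered proteins: Cxcl9, Cxcl10, Cxcl12, Cxcl16, Cx3cl1, Ccl2, Ccl3, Ccl4, Ccl5 and Ccl12. They were chosen by name, with earlier results of these arrays known, and their 13 probes were found through the transcript that the array design gives for each probe. They are 10 of the 22907 genes with a symbol on the array. Levels and above-background calls were read on 24 single-colour arrays, 1 per cerebellum sample, from C57BL/6 mice killed at day 28 after birth.

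Controls were Derlin-1flox/flox or Derlin-2flox/flox mice. Knockouts (KO) carried the same floxed alleles and a Cre recombinase under the nestin promoter, which is active in the neural lineage; cells outside that lineage, such as microglia and blood-borne leukocytes, are expected to keep the gene. The Derlins sit in the membrane of the endoplasmic reticulum and help clear misfolded proteins from it. The Derlin-2 line and a first Derlin-1 series, with numbered arrays, held control and KO mice given water, or 4-phenylbutyrate (4PBA, a chemical chaperone) at 200 mg/kg, injected into the abdomen daily from day 14 to day 28. A second Derlin-1 series, with lettered arrays, held control and KO mice with 4PBA and arrays whose titles name neither 4PBA nor vehicle, called untreated here. This gave 12 groups of 2 arrays. The term without 4PBA covers the numbered vehicle and the lettered untreated arrays. The labels do not say that the arrays of a group came from separate litters or extractions, so p-values measure only the spread between these arrays.

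Chemokines act as chemical guides for leukocytes and for migrating or resident brain cells by binding receptors on the cell surface. Inflammatory chemokines such as Cxcl10, Ccl2 and Ccl3 are nearly silent in healthy brain and are induced in microglia, astrocytes and other cells by cytokines, interferons and tissue damage. Cxcl12 and Cx3cl1 are instead made constantly: Cxcl12 guides cerebellar granule cell precursors, and Cx3cl1 is displayed by neurons and read by microglia through Cx3cr1.

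The promoters of Cxcl10, its neighbour Cxcl9 and Ccl3 are shown because Cxcl10 was 11.4-fold and Ccl3 at least 11.5-fold higher in Derlin-1 KO without 4PBA, while Cxcl9 was well above background on 1 array. These folds hold for the scanner software's background-corrected signal, and their size depends on that correction. RefSeq promoter windows (GRCm38.p6, 250 bases before to 50 bases after the start) were found for 6 of the 10 genes, and none for Ccl2, Ccl4, Ccl5 and Cxcl16. Each runs 5′ to 3′ along the gene, with matches to the searched motifs in capitals.
Cxcl10, chr5:92348840-92349139, minus strand: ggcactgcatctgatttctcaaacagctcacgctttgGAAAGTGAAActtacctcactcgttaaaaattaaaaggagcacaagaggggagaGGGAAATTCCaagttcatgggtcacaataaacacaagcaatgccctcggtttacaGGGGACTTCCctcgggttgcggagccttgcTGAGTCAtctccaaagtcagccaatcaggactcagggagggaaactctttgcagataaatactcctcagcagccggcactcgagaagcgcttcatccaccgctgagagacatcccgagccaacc
Cxcl9, chr5:92328030-92328329, minus strand: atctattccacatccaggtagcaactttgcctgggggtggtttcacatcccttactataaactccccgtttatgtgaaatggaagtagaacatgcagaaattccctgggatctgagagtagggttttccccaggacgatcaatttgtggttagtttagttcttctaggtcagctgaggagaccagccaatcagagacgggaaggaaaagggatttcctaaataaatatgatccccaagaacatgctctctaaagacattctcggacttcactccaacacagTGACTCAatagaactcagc
Ccl3, chr11:83649329-83649628, minus strand: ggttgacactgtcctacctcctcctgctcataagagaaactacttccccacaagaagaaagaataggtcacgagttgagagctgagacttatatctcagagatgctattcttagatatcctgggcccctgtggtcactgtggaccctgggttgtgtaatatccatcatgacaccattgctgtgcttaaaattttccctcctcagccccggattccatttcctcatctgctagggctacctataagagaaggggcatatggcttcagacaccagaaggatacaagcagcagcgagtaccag
Both strands were searched for 4 short motifs. The Cxcl10 window held GGGNNNTTCC, the kappa B site of NF-kappa B, from 159 and from 104 bases before the start, and 5.56% of all 32851 promoter windows of the same length held it. It also held the core of the interferon-stimulated response element, read by interferon-activated factors, from 213 bases before the start (3.44% of all windows), and TGANTCA, the AP-1 site, from 74 bases before the start (7.81% of all windows). These 4 matches did not overlap. The Cxcl9 window held 1 match, to TGANTCA, after the start. TTCNNNGAA, the gamma-activated site, occurs in 8.3% of all windows and matched in none of the 6. No motif matched in the windows of Ccl3, Ccl12, Cxcl12 or Cx3cl1, which says only that these letters are not there.

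Of the 10 genes, 6 lie on chromosome 11 (Ccl2, Ccl12, Ccl5, Ccl3, Ccl4 and Cxcl16), Cxcl9 and Cxcl10 on chromosome 5, Cxcl12 on chromosome 6 and Cx3cl1 on chromosome 8. Ccl3 and Ccl4 are next to each other in the reference gene table. Ccl2 and Ccl12 are separated by Ccl7 and Ccl11, and Ccl5 and Ccl3 by Ccl9 and Ccl6, which are chemokine genes too. Only Art3 lies between Cxcl9 and Cxcl10.

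On every array between 57.7% and 68.4% of spots were marked by the scanner software as well above background, and each series lay on a slide of its own. On every slide controls filled array columns 1 and 2 and KO arrays columns 3 and 4, and arrays with 4PBA filled row 2, so that array position cannot be told apart from genotype or from 4PBA. Markers of granule neurons (5 genes) and Purkinje cells (4 genes) were well above background on all 24 arrays. Derl1 (probe A_51_P504522) was not called between Derlin-1 KO and control arrays without 4PBA (log2 difference -0.33, SE 0.15, limma's adjusted p 0.178), and whether its probe lies in the deleted part is not known. Derl3, a gene of the same family, was higher in Derlin-1 KO arrays without 4PBA (2.13, SE 0.39, limma's adjusted p 0.00557). Replicate b of the lettered Derlin-1 KO group with 4PBA had Derl3 at -2.27, between the controls of its slide with 4PBA at -2.54 and -2.18. The library labelled KO vehicle 1 of the Derlin-2 mice had a Derl2 level of 1.72 (probe A_51_P498831), against 1.40 to 1.58 on the controls of its slide. Counts of members called that rest on either array are given with and without it.

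Of the 13 probes, 12 passed the filter (well above background on both arrays of at least 1 group), and with 1 probe per gene 9 of the 10 genes were tested; Cxcl9 did not pass. Cxcl12, Cx3cl1, Cxcl16 and Ccl5 were well above background on all 24 arrays, Cxcl10 and Ccl12 on 23 and Ccl2 on 21. Ccl4 was detected on 15 arrays by its brighter probe and on 11 by the other, and Ccl3 on 12. A gene that passed through the KO arrays alone had to differ, so counts over the tested genes describe them and support nothing. A level below is the log2 intensity minus that of the 75th percentile of its array, and differences are KO minus control on the log2 scale. In the Derlin-1 line differences are averages over both series (4 arrays against 4). Because these are whole cerebella, more cells of a type and more RNA per cell cannot be told apart.

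The Derlin-1 KO arrays without 4PBA are the ones whose results were known when the genes were chosen, so their values are a description. There, Cxcl10, Ccl2, Ccl12, Ccl3, Ccl4 (by its brighter probe) and Ccl5 had higher levels on all 4 KO arrays than on any of the 4 controls. By the other Ccl4 probe the highest control (-3.43, numbered series) lay above the lowest KO array (-3.95, lettered series). No share of all genes is given for such a separation. Cxcl16 had a small difference, Cxcl12 almost none, and Cx3cl1 a small one downward. In limma's fit over all genes 6 of the 9 tested members were called (adjusted p under 0.05), all higher; 10.6% of the 16931 genes tested were called in either direction and 5.25% higher. The sizes depend on the background correction: with a normexp correction and an offset of 50 the same comparison gave 2.45 for Cxcl10, 1.81 for Ccl3, 1.49 for Ccl12, 1.41 for Ccl5, 1.16 for Ccl4 and 1.04 for Ccl2.

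**Figure D1:**
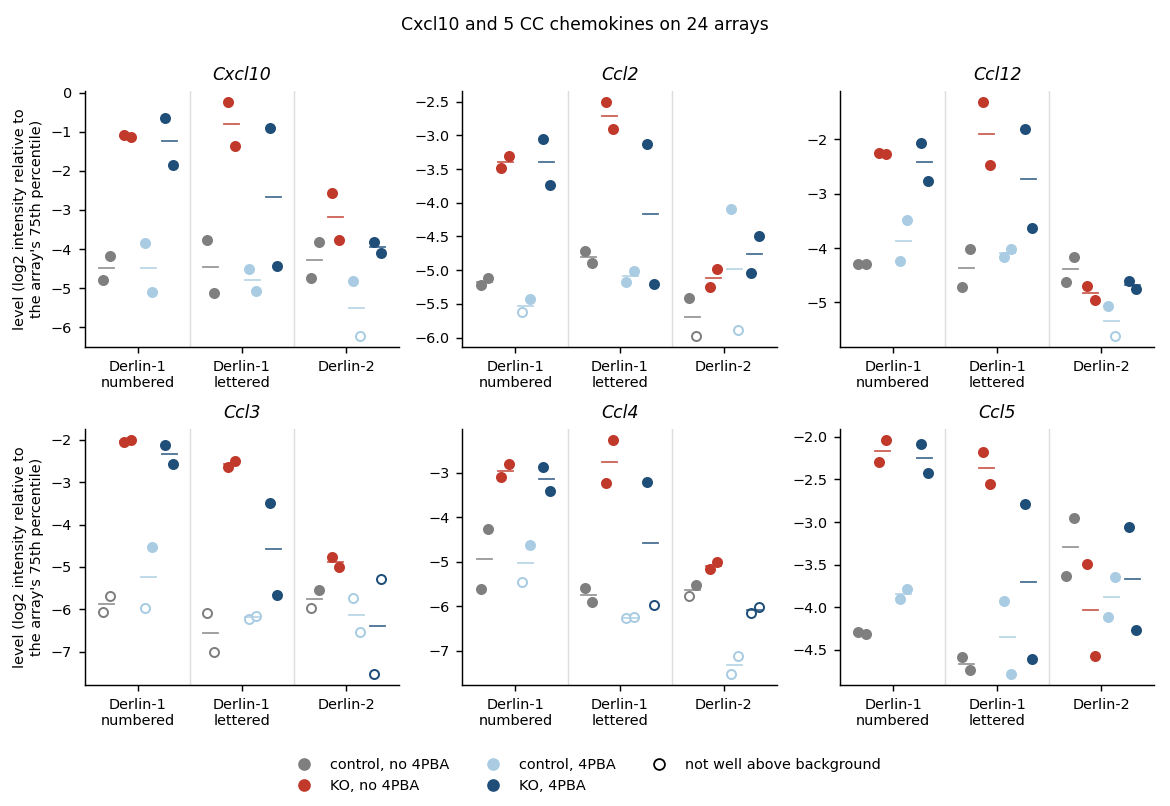
Level of Cxcl10, Ccl2, Ccl12, Ccl3, Ccl4 and Ccl5 (log2 intensity against the array's 75th percentile) on each of the 24 arrays, by series, genotype and 4PBA. Points are arrays, short lines are means of 2 arrays, and open points are not well above background. Derlin-1 KO arrays lie above the controls of their slide except, for several genes, the lower of the lettered KO arrays with 4PBA.

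Cxcl10, an interferon-inducible ligand of the receptor Cxcr3 that attracts activated T cells, was at -4.78 and -4.18 on the numbered vehicle controls and at -1.09 and -1.13 on the KO arrays. The lettered untreated controls had -3.78 and -5.13 and their KO arrays -0.25 and -1.37. The groups did not overlap in either series, and the averaged difference was 3.51 (SE 0.65), an 11.4-fold higher level. With 4PBA the numbered controls had -3.84 and -5.11 and the KO arrays -0.64 and -1.85. The lettered controls with 4PBA had -4.51 and -5.07, KO array a had -0.91, and the array labelled KO b had -4.44, just above both controls. Among 12 group means, compared across slides, the 4 highest were those of the 4 Derlin-1 KO groups. Groups next to each other in this order overlapped at all but 1 of the 11 steps.

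Cxcl9, a close relative of Cxcl10 that binds the same receptor and is known for its induction by interferon gamma, was well above background on 1 of 24 arrays. That array, Derlin-1 KO vehicle 2, had -5.44, while the other KO array of its group had -7.69 and the numbered vehicle controls -8.14 and -8.09. On the 23 other arrays it was not well above background.

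Ccl2 and Ccl12 are both ligands of the monocyte receptor Ccr2. Ccl2 was at -5.22 and -5.12 on the numbered vehicle controls and at -3.48 and -3.31 on the KO arrays, and the lettered series gave -4.71 and -4.90 against -2.51 and -2.91. The groups were separate on both slides, with a difference of 1.93 (SE 0.40), 3.82-fold. Ccl12 was at -4.30 on both numbered vehicle controls and at -2.25 and -2.27 on the KO arrays, and the lettered untreated arrays had -4.72 and -4.01 against -1.32 and -2.48. Its difference was 2.25 (SE 0.35), 4.77-fold.

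Ccl3 and Ccl4, also called macrophage inflammatory proteins 1 alpha and 1 beta, attract monocytes and T cells. Ccl3 was not well above background on any of the 4 Derlin-1 controls without 4PBA, where its measured values lay between -7.01 and -5.69. The 4 KO arrays had -2.06, -2.01, -2.65 and -2.49 and were all well above background. Against the detection floor of the control arrays Ccl3 was at least 13.3-fold higher in the numbered series and at least 11.5-fold higher in the lettered series. Both bounds hold for the scanner software's background correction, and the Ccl3 difference was smaller with the normexp correction. The fitted difference was 3.92 (SE 0.50); it rests on control signals at or near background, as do the other fitted values of Ccl3 that involve Derlin-1 controls, and is no bound.

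Ccl4 was at -5.60 and -4.27 on the numbered vehicle controls and at -3.10 and -2.80 on the KO arrays, by its brighter probe A_51_P509573. The lettered controls had -5.58 and -5.91 and the KO arrays -3.24 and -2.27. The difference was 2.49 (SE 0.46), 5.62-fold. By its other probe, A_55_P2744077, the controls ranged from -8.11 to -3.43 and only the highest was well above background, while the 4 KO arrays ranged from -3.95 to -2.99. In the lettered series this probe was at least 6.14-fold higher in KO, since neither control was above background. Its difference of 2.71 (SE 0.87) was not called over all probes (limma's adjusted p 0.0887), unlike that of the brighter probe.

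Ccl5, which attracts T cells and monocytes and is made by T cells and by activated glia, was at -4.29 and -4.31 on the numbered vehicle controls and at -2.29 and -2.04 on the KO arrays. The lettered controls had -4.59 and -4.74 and the KO arrays -2.18 and -2.55. Its difference was 2.22 (SE 0.37), 4.65-fold, and its groups were separate on both slides. The probes of Ccl2 and Ccl12, and of Ccl3 and Ccl4, detect related sequences, and cross-hybridisation between them was not tested.

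Cxcl16 and Cx3cl1 are made as membrane-bound proteins whose chemokine domain can be shed by the proteases Adam10 and Adam17. Cxcl16, the ligand of Cxcr6, lay between -3.99 and -3.80 on the 4 Derlin-1 controls without 4PBA and between -3.75 and -3.35 on the 4 KO arrays, by its brighter probe. The groups did not overlap, but the difference was only 0.40 (SE 0.18) and was not called. Its other probe, A_51_P374198, gave 0.49 (SE 0.22), and there controls (-5.07 to -4.02) and KO arrays (-4.19 to -3.96) overlapped. Cx3cl1 was at 2.32 and 2.28 on the numbered vehicle controls and at 2.0 and 2.20 on the KO arrays, and at 2.42 and 2.20 against 1.82 and 2.09 in the lettered series. KO arrays were lower on both slides, by 0.28 on average (log2 difference -0.28, SE 0.09), and this was not called. Without array b of the untreated controls, or without array b of the untreated KO group, it was called at -0.34 and -0.35, and it was also called at -0.28 (limma's adjusted p 0.047) when only probes well above background on all arrays were tested.

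Cxcl12, the ligand of Cxcr4, was read by probes on 2 of its transcripts. On the brighter probe, A_51_P172502, the 24 arrays lay between 2.0 and 3.01, and Derlin-1 KO minus control without 4PBA was -0.04 (SE 0.13). On the other probe, A_55_P1966204, which is placed on another transcript, the 24 arrays lay between -1.39 and 0.18 and the difference was -0.30 (SE 0.14). The lettered KO arrays had the lowest values of this probe, -1.16 and -1.39, against -0.33 and -0.90 on their controls, while the numbered groups overlapped. Neither probe was called.

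**Figure D2:**
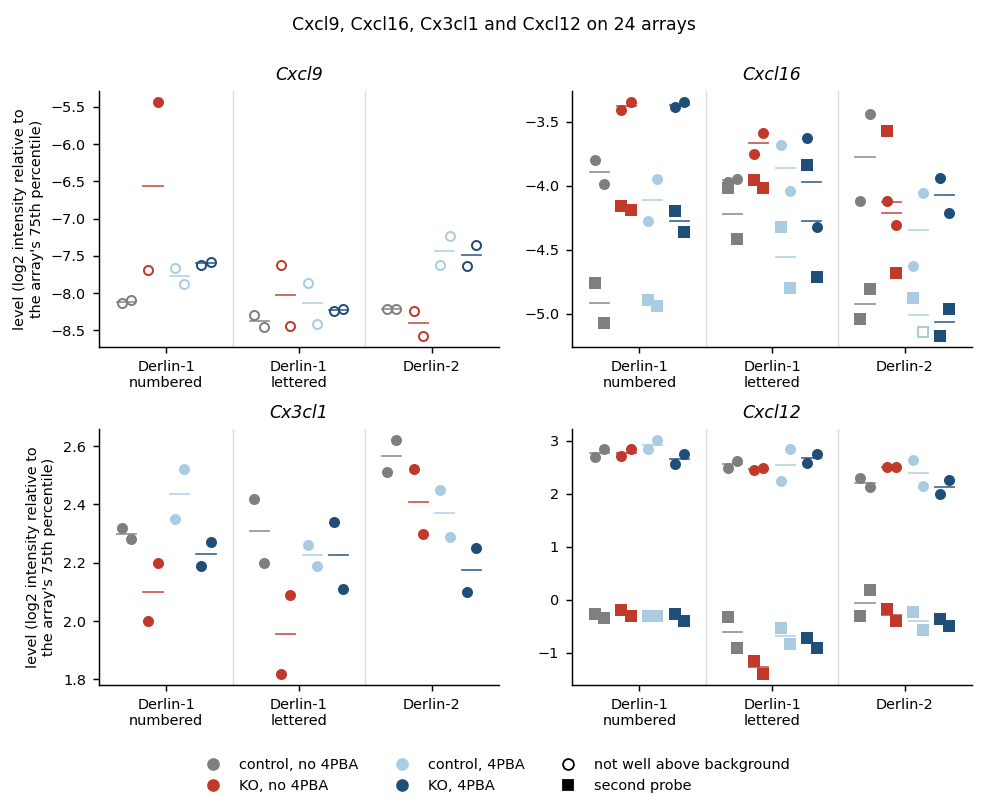
Level of Cxcl9, Cxcl16, Cx3cl1 and Cxcl12 (log2 intensity against the array's 75th percentile) on each of the 24 arrays; squares are the second probe of Cxcl16 and Cxcl12, short lines are means of 2 arrays, and open symbols are not well above background. Cxcl9 was detected on 1 array (-5.44), and the brighter Cxcl12 probe stayed between 2.0 and 3.01.

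The KO differences of the 2 Derlin-1 series were set against each other. None of the 9 members was called in the difference between the series (lowest limma adjusted p 0.978; 0.00591% of genes called). Cxcl10 differed from control by 3.38 (SE 0.91) in the numbered and 3.64 (SE 0.91) in the lettered series. For Ccl3 only the bounds given above can be set side by side. The numbered series alone called 0 of 9 members (0.0118% of genes called), with 6 members at an unadjusted p under 0.05 (13.2% of genes). The lettered series alone called 5 of 9 (3.54% of genes called), Ccl2 being the one of the 6 that was missed. These values come from the arrays that chose the genes and are given as a description.

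Whether the chemokines also differed in mice given 4PBA was asked on 8 other arrays. The 4 KO arrays with 4PBA had on average higher Cxcl10, Ccl3, Ccl4, Ccl2, Ccl12 and Ccl5 than the 4 controls, by 2.67 (SE 0.65), 2.26 (SE 0.50), 1.78 (SE 0.46), 1.53 (SE 0.40), 1.40 (SE 0.35) and 1.12 (SE 0.37). None of the 9 members was called (limma's adjusted p between 0.111 and 0.883; 0.0473% of genes called), while 6 had an unadjusted p under 0.05 (12.8% of genes). The median difference of the 9 was 1.40, against -0.02 over all genes tested. Ordered by difference from the largest rise down, Cxcl10 had rank 6 of 16930 genes. In the lettered series both controls were dim for Ccl3 and for Ccl4. The KO arrays were at least 2.42-fold higher for Ccl3. No fold is given for the brighter Ccl4 probe, since only 1 of 2 KO arrays was above background. For the other Ccl4 probe no fold is given in the lettered series, since the mean of its KO arrays lay below the detection floor.

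Array b, labelled as a lettered Derlin-1 KO with 4PBA, stood apart from the other 3 KO arrays with 4PBA. Ccl2 was at -3.05, -3.74 and -3.13 on those arrays and at -5.20 on array b, with lettered controls at -5.17 and -5.01. Ccl5 was at -2.08, -2.42 and -2.79 on those arrays and at -4.61 on array b, with lettered controls at -3.93 and -4.78. Ccl12 was at -2.06, -2.77 and -1.81 on those arrays and at -3.64 on array b, above both lettered controls (-4.17 and -4.01).

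Ccl3 was at -2.11, -2.56 and -3.48 on the other KO arrays with 4PBA and at -5.67 on array b, where both lettered controls, at -6.22 and -6.15, were not well above background. Ccl4 was at -2.88, -3.41 and -3.21 on those arrays and not well above background on array b (-5.96). For Cxcl10, Ccl2, Ccl12 and Ccl5 array b lay between 0.04 and 0.37 from the nearest lettered control with 4PBA.

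Without array b, whose Derl3 level is that of a control, 6 of the 9 members were called higher (6.18% of genes called). Cxcl10 was higher by 3.56 (SE 0.52, limma's adjusted p 0.00129), Ccl3 by 2.81 (SE 0.47, adjusted p 0.00328 in limma) and Ccl4 by 2.46 (SE 0.32, adjusted p 0.000571 in limma). The last value too rests on dim controls, since Ccl4 was well above background on 1 of the 4. Ccl2 was higher by 2.05 (SE 0.34), Ccl12 by 1.86 (SE 0.29) and Ccl5 by 1.57 (SE 0.33), with limma's adjusted p from 0.00215 to 0.0122. Cxcl16 (0.49, SE 0.18), Cx3cl1 (-0.05, SE 0.10) and Cxcl12 (-0.11, SE 0.15) were not called. The chemokine levels of array b also set it apart, so the count without it is no independent result. The lone lettered KO array with 4PBA is then assumed to vary like the other groups.

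**Figure D3:**
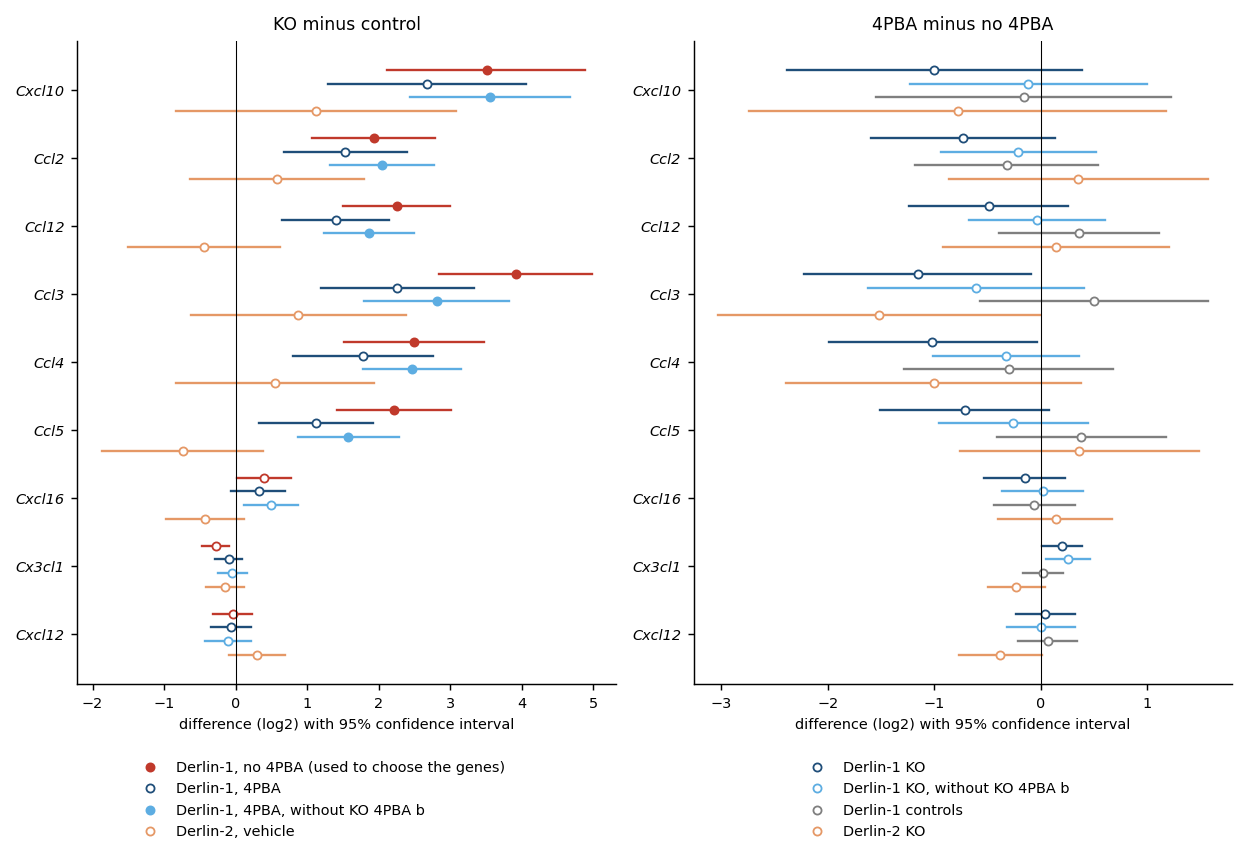
Differences on the log2 scale with 95% confidence intervals for the 9 tested chemokines, KO minus control (left) and 4PBA minus no 4PBA (right). Filled points were called at a limma adjusted p under 0.05 and open points were not; 6 genes are filled in the comparison that chose them and with 4PBA without array b, and none in the other comparisons drawn. Ccl3 values against Derlin-1 controls rest on control signals near background.

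The effect of 4PBA itself was compared within each genotype. In Derlin-1 KO mice none of the 9 members was called (limma's adjusted p between 0.734 and 0.978, 0.0354% of genes called). An unadjusted p under 0.05 was found for 3 members (6.65% of genes). The 3 were Ccl3 and Ccl4, which were lower with 4PBA, and Cx3cl1, which was higher. Ccl3 was at -1.15 (SE 0.50), Ccl4 at -1.02 (SE 0.46) and Cxcl10 at -1.0 (SE 0.65, 95% interval -2.38 to 0.39) in 4PBA minus no 4PBA. Without array b these differences were -0.61 (SE 0.47) for Ccl3, -0.33 (SE 0.32) for Ccl4 and -0.12 (SE 0.52) for Cxcl10, and the median of the 9 moved from -0.71 to -0.12. Again none was called (0.0591% of genes called), and 1 member, Cx3cl1, had an unadjusted p under 0.05 (3.13% of genes). Without array a in place of b, Ccl4 alone was called (-1.70, SE 0.32, limma's adjusted p 0.0209).

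Cx3cl1 was the member with an interval above 0 in this comparison, at 0.20 (SE 0.09), and at 0.26 (SE 0.10) without array b; neither was called. The KO arrays without 4PBA enter this comparison and the one that chose the genes. In Derlin-1 controls none of the 9 was called for 4PBA (0.0295% of genes called; 0 members and 2.1% of genes at an unadjusted p under 0.05): Cxcl10 differed by -0.16 (SE 0.65). No difference is given for Ccl3, which was at background on most of these arrays.

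The KO difference with 4PBA was set against that without 4PBA. None of the 9 members was called (0.0118% of genes called); 8 of the 9 values were below 0, with a median of -0.71, and 1 member, Ccl3, had an unadjusted p under 0.05 (-1.65, SE 0.70, a value that rests on dim controls), as did 2.67% of genes. The others included Ccl5 at -1.10 (SE 0.52) and Cxcl10 at -0.83 (SE 0.91, 95% interval -2.79 to 1.13). Without array b the values were -1.11 (SE 0.63) for Ccl3, -0.64 (SE 0.44) for Ccl5 and 0.05 (SE 0.69) for Cxcl10. Then 5 of the 9 values were below 0, with a median of -0.03, none was called (0.0295% of genes called) and 0 had an unadjusted p under 0.05 (1.88% of genes).

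In the Derlin-2 line none of the 9 members was called with vehicle (limma's adjusted p between 0.717 and 0.903, 0 members and 8% of genes at an unadjusted p under 0.05; 0.118% of genes called). Cxcl10 was at -4.75 and -3.83 on the controls, at -2.58 on the array labelled KO vehicle 1 and at -3.77 on KO vehicle 2. The KO arrays lay above both controls, by 1.12 (SE 0.91), and by 0.52 (SE 1.13) without KO vehicle 1, the array with Derl2 at a control level. Ccl3 was well above background on both KO arrays (-4.76 and -5.00) and on 1 control (-5.54), a difference of 0.87 (SE 0.70). Ccl5 differed by -0.74 (SE 0.52) and Ccl12 by -0.44 (SE 0.50). Without KO vehicle 1 the differences were 0.76 (SE 0.89) for Ccl3, -1.28 (SE 0.62) for Ccl5 and -0.56 (SE 0.63) for Ccl12, and again none was called (0.487% of genes called). The lone KO array is assumed there, and wherever KO vehicle 1 is left out, to vary like the other groups.

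The probes of Cxcl16 differed in sign in this comparison. The brighter probe gave -0.43 (SE 0.25) and the other 0.80 (SE 0.32, limma's adjusted p 0.652 over all probes), where KO vehicle 1 had -3.57 and KO vehicle 2 -4.68 against controls at -5.04 and -4.81. No direction is given for Cxcl16 there.

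With 4PBA none of the 9 was called in Derlin-2 KO mice (0.136% of genes called; 0 members and 4.7% of genes at an unadjusted p under 0.05). Cxcl10 was at -3.82 and -4.09 on the KO arrays, at -4.82 on 1 control and not well above background on the other (-6.21), a difference of 1.56 (SE 0.91, 95% interval -0.40 to 3.51). Ccl3 and Ccl4 were not well above background on any of these 4 arrays, so no fold is given. 4PBA minus vehicle called none of the 9 in Derlin-2 KO arrays (0.136% of genes called), with 1 member and 9.21% of genes at an unadjusted p under 0.05. Without KO vehicle 1 none was called either (0.487% of genes called), with 0 members and 8.4% of genes at that threshold. In Derlin-2 controls none was called (0.13% of genes called), with 2 members and 5.16% of genes at that threshold.

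The KO differences of the 2 lines without 4PBA were compared directly, with the Derlin-1 side being the comparison that chose the genes. None of the 9 was called (lowest limma adjusted p 0.112; 0.065% of genes called), and 5 had an unadjusted p under 0.05 (14% of genes). Derlin-1 minus Derlin-2 was 2.96 (SE 0.64) for Ccl5, 2.69 (SE 0.61) for Ccl12 and 2.39 (SE 1.12) for Cxcl10. Without KO vehicle 1 of the Derlin-2 line the lowest limma adjusted p was 0.058, for Ccl5, and again none was called (0.422% of genes called).

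Over the 12 groups the levels of each member were put in order. Each series lay on its own slide, so line and series cannot be told apart from slide in this order. The 4 Derlin-1 KO groups held the 4 highest means of Cxcl10, Ccl2, Ccl12, Ccl3 and Ccl4. For Ccl5 and Cxcl16 the fourth place went to the Derlin-2 vehicle controls, in place of the lettered KO group with 4PBA that holds array b. For Cx3cl1 the highest mean was 2.56 in Derlin-2 vehicle controls and the lowest 1.95 in lettered untreated Derlin-1 KO. For Cxcl12 the means ran from 2.13 to 2.92 with no KO group set apart. Groups next to each other overlapped at 7 or more of the 11 steps for every tested member, so most neighbouring ranks do not differ beyond their spread.

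The genes whose levels were most like those of Cxcl10 were looked up over all 24 arrays, after the mean of each slide was taken off, among 16086 genes well above background on at least 12 arrays. The 6 highest Pearson correlations were those of Lyz1 (0.94), Gdf15 (0.94), Oas1f (0.93), Oasl1 (0.93), Slc35b1 (0.93) and Oas1a (0.93). Lyz1 encodes a lysozyme, Gdf15 a stress-induced hormone and Slc35b1 a transporter of the endoplasmic reticulum, while Oas1a, Oas1f and Oasl1 belong to an interferon-induced family. Among the members r was 0.89 for Ccl4, 0.88 for Ccl12, 0.87 for Ccl3, 0.85 for Ccl2, 0.85 for Ccl5, 0.58 for Cxcl16, -0.23 for Cxcl12 and -0.41 for Cx3cl1. The arrays share the KO and control groups, and any gene that differs between them correlates with Cxcl10, so these values are a description.

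Other genes of the pathway were then counted in the Derlin-1 line without 4PBA, from lists of other chemokines, receptors, inducers, interferon-induced genes and proteases. Over all genes tested there, 10.6% were called and 5.25% were called higher, against which the counts of these lists and of the marker lists below are to be read. Of 28 other chemokines 27 were on the array and 16 were tested; 5 were called higher and none lower, with a median of 0.55. Ccl6 (1.82, SE 0.25, limma's adjusted p 0.00225) and Ccl9 (1.55, SE 0.32, limma's adjusted p 0.0106), which lie between Ccl5 and Ccl3, were among them. Ccl7 (1.05, SE 0.21), which lies between Ccl2 and Ccl12, Ccl25 (0.52, SE 0.12) and Ccl8 were the others. Ccl7 was well above background on 3 of 4 KO arrays and 1 of 4 controls, so its value rests on dim controls and is no bound. Ccl8 was well above background on 2 KO arrays and no control, so that no difference is given for it. Ccl11, Cxcl2 and Cxcl13 were among 7 other chemokines never well above background on any array.

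Of 23 receptor genes 7 were well above background on all 24 arrays and 7 on none. Of these 23 genes 14 were tested, and 1 was called higher and 1 lower, a share near the 10.6% of all genes. Cx3cr1, the microglial receptor of Cx3cl1, was higher in KO (1.04, SE 0.17, limma's adjusted p 0.00362), and Ackr4, a scavenger of several CC chemokines, was lower (-1.76, SE 0.24, limma's adjusted p 0.00203). Cxcr3, the receptor of Cxcl9 and Cxcl10, and Ccr2 and Ccr1 were not well above background on any of the 24 arrays. Cxcr6, the receptor of Cxcl16, was well above background on 16 arrays and differed by 0.42 (SE 0.37). Cxcr4, the receptor of Cxcl12, was well above background on 19 arrays and differed by 0.11 (SE 0.23).

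Among 12 tested inducers and transcription factors 5 were called higher (5.25% of all genes), among them Irf7 (1.83, SE 0.32), Irf9 (0.90, SE 0.19), Relb (0.50, SE 0.14) and Nfkb2 (0.35, SE 0.09). Irf7 and Irf9 carry interferon signals, and Relb and Nfkb2 are subunits of NF-kappa B. The cytokine genes Ifng, Ifnb1, Il1a and Il6 were not well above background on any array and Il1b on 1. Tnf was measured and differed by -0.34 (SE 0.12, limma's adjusted p 0.0967). Of 14 interferon-induced genes, all tested, 13 were called higher, with a median of 1.18. The 6 with the largest differences were Usp18 (1.95), Ifit1 (1.70), Ifit3 (1.66), Oasl2 (1.62), Oas1a (1.45) and Igtp (1.40), with SE from 0.30 to 0.40; Rsad2 (1.14, SE 0.36, limma's adjusted p 0.0572) was not called.

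None of the 5 proteases was called. Of those well above background on all these arrays, Mmp2 (0.23, SE 0.45), Dpp4 (-0.22, SE 0.17) and Adam10 had the largest differences. Adam10, which sheds Cx3cl1 and Cxcl16, differed by -0.19 (SE 0.07, limma's adjusted p 0.096) and Adam17 by -0.16 (SE 0.07). With 4PBA no gene of the 5 lists was called (0.0473% of all genes). Without array b, where 6.18% of all genes were called, 3 other chemokines (Ccl6, Ccl9 and Ccl7), 3 receptors (Cx3cr1 and Cxcr4 higher, Ackr4 lower), 3 inducers (Irf7, Irf9 and Relb) and all 14 interferon-induced genes were. In the Derlin-2 line no gene of these lists was called with vehicle or with 4PBA. Without KO vehicle 1, Ccl21a, a gene with near-identical copies, was called lower with vehicle (-4.8, SE 0.64, limma's adjusted p 0.00512); the KO side is then 1 array, and this SE and p rest on the spread of the other groups.

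**Figure D4:**
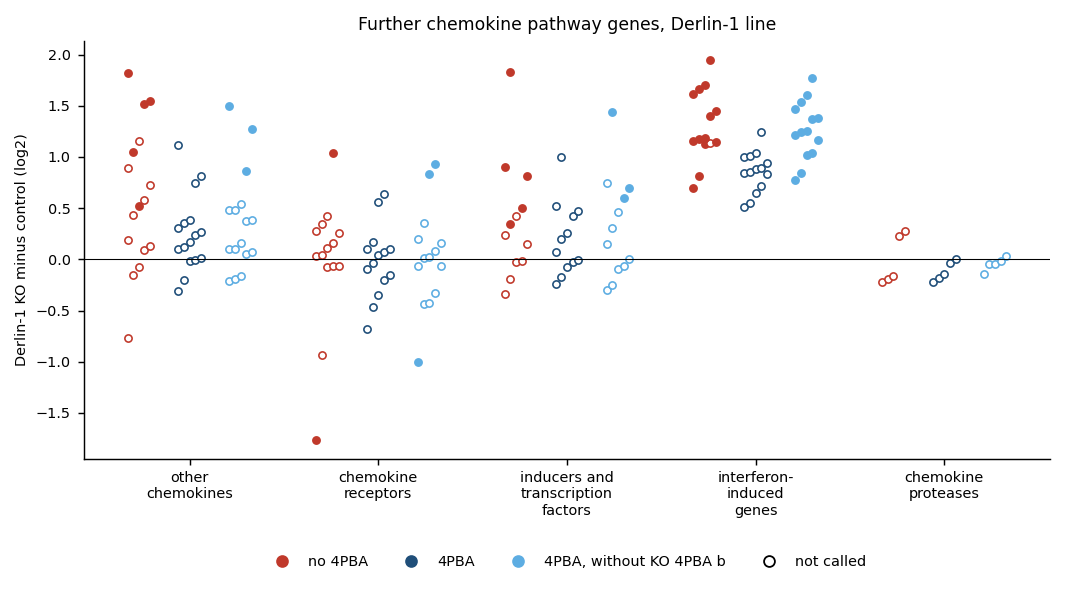
Derlin-1 KO minus control (log2) of each tested gene in 5 lists of the chemokine pathway, without 4PBA, with 4PBA, and with 4PBA without array b; filled points were called at a limma adjusted p under 0.05. Without 4PBA 5 of 16 other chemokines, 2 of 14 receptors, 5 of 12 inducers and transcription factors, 13 of 14 interferon-induced genes and none of 5 proteases are filled.

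Markers of some cell types differed in the Derlin-1 line without 4PBA as the chemokines did. Of 10 microglia markers, all well above background on every array, 7 were called higher without 4PBA (5.25% of all genes), among them Trem2 (1.77) and Aif1 (1.49). The summed microglia signal (log2) was 6.24 and 6.35 on the numbered vehicle controls against 6.45 and 6.48 on the KO arrays, and 5.86 and 5.90 on the lettered untreated controls against 6.13 on both KO arrays, so that the groups were separate on each slide. With 4PBA they overlapped in the numbered series, at 6.09 and 6.37 on controls against 6.42 and 6.31 on KO arrays. In the lettered series, with controls at 5.98 and 5.90, KO array a (6.07) lay above both and array b (5.88) below both. The lettered overlap rests on array b, whose Derl3 level is that of a control. Of 6 monocyte and macrophage markers 3 were called higher, Lyz2 (1.64), Cd163 (1.19) and Lyve1 (0.84), with summed signals of 3.06 and 3.36 on controls against 3.28 and 3.36 on KO arrays in the numbered series, and 3.33 and 3.69 against 3.81 and 4.0 in the lettered series. Of 6 markers of astrocytes and Bergmann glia Gfap (1.25) alone was called, and 3 of 5 granule neuron markers were called lower.

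Lymphocyte markers differed in detection. Of 8 T cell markers Cd4, Cd8b1 and Lck were well above background on 24 arrays, Cd3e on 23, Cd3d on 17, Cd2 on 5, Cd3g on 1 and Cd8a on 0. The calls given here are those of the Derlin-1 line without 4PBA. Of 5 tested T cell markers Lck (0.89) was called higher. On the Derlin-1 arrays without 4PBA summed T cell signals ranged from 1.0 to 3.37 on controls and from 1.02 to 2.53 on KO arrays. Of the natural killer cell markers Ncr1 and Gzmb were not well above background on any array, Gzma was on 22 and Prf1 and Klrb1c on all 24, and Klrb1c was called lower (-0.46). Among the B cell markers Ms4a1 was well above background on no array, Cd79a on 4 and Cd79b on 22. No B cell, neutrophil, endothelial, oligodendrocyte, Purkinje cell, choroid plexus or meningeal marker was called. The summed choroid plexus signal differed widely between arrays of a group: without 4PBA it was 6.40, 7.17, 7.01 and 3.29 on the Derlin-1 controls and 3.60, 7.90, 6.81 and 1.44 on the KO arrays. The part of any of these cell types in the chemokine differences was not tested.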

How the data were processed

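Total RNA of 24 mouse cerebella was labelled with Cy3 and hybridised to 1-colour Agilent arrays read with Agilent Feature Extraction 10.7.1.1, per the submitters' processing notes. The deposited values were linear intensities: the authors' processed signal after background and spatial correction, per the file headers, with no normalization between arrays recorded. The series table held the same intensities (largest log2 difference 1.74e-06 at probes with 1 spot; array medians 50.38 to 81.52).

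Control spots were left out, leaving 59305 spots per array, of which 52 to 637 were flagged as outliers and treated as missing; 0 were saturated. Spots of a probe were averaged (56605 probes, 32989 with a symbol through the transcript name and a RefSeq gene table of GRCm38.p6; the headers name another build, so its gene coordinates are not given). Each array was scaled to its 75th percentile (intensity 890 to 1169). A probe stayed in if the 2 arrays of any group both had it well above background (38115 probes), with the brightest probe per symbol (16931 genes). A missing value leaves its array out of that probe's fit.

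One limma 3.58.1 model (R 4.3.3) held a mean for each of the 12 groups (12 residual and 2.13 prior degrees of freedom) and was tested on simulated data. P-values were two-sided, moderated by limma and adjusted over all genes by the Benjamini-Hochberg method; under 0.05 a gene was called. Derlin-1 comparisons were averaged over both series, each within its slide. Each slide held 1 series. A bound (at least N-fold) divides the mean of the group that was above background by a detection floor: on every dim array, the weakest signal of any probe called well above background, or the dim probe itself where that was stronger. Array number (2 per group) limits the precision. Summaries and plots used Python 3.11.15, numpy 2.4.6, pandas 2.3.3 and matplotlib 3.10.9.

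The members and gene lists were chosen with earlier results of these data known. Named are all members and, of each further list, the called genes or else the 3 largest changes, at most 6 a list (with Derl1 to Derl3 and the 6 genes most like Cxcl10). Receptors, cytokines and other list genes named for their detection or as exceptions, and the marker genes named, were picked after their values were seen. Same-numbered arrays were checked for pairing: of 18 correlations of their deviations, between -0.15 and 0.40, 7 were over 0.1. The main fit did not treat the arrays as paired, and this check cannot exclude pairing on single slides. Alternatives were other scalings, background correction, dim-probe filters, probe rules, array weights, the series table, a block, single series and leaving out each array. The normexp alternative used median spot signals, since the files used here hold no mean signals. Values of 1 listed receptor, 1 listed transcription factor and 1 marker gene are not reported here.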

Additional observations from a re-analysis of the deposited data

Results flagged for a closer look

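Cxcl9 was read by a probe that did not enter the tests, since it was not well above background on both arrays of any group. On the array Derlin-1 KO vehicle 2 it was well above background, at -5.44 (log2 intensity against the array's 75th percentile). None of the 12 control arrays was well above background, and their values for this probe were all lower. The other array of the same group, at -7.69, was not above background, so the signal rests on 1 array.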

How the results depend on the processing

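Over the alternatives listed in the methods, the number of members called stayed within 1.5 times its main value in 200 recomputed counts, was higher in 3 and lower in 2, and no called difference changed sign. In Derlin-1 KO against control without 4PBA, 6 members were called; the count was 0 in the numbered series alone (fewer arrays) and 2 when only probes well above background on all arrays were kept (4 members tested; the 2 were Ccl5, the one of the 6 still tested, and Cx3cl1, newly called and lower), and leaving out each array gave 6 to 7. With 4PBA it was 0, and 0 to 6 when each array was left out, the 6 without array b of the lettered KO group. For 4PBA in Derlin-1 KO arrays it was 0, and 0 to 1 when each array was left out, the 1 being Ccl4 without array a of the lettered KO group. The difference between the Derlin-1 and Derlin-2 effects called 0, and 2 with array weights (Ccl5, adjusted p 0.04, and Ccl12, adjusted p 0.0352, in limma); the cause was not tested. A fit of 1 line alone gives no value for that difference. With the replicate block the members called stayed at 6 without 4PBA and 0 in every other comparison, and the call over all genes without 4PBA went from 1797 to 2185. Of the members' log2 differences 1657 stayed on their side of the threshold (and, if not called, within 1 SE), 114 that were not called moved by more, 12 newly passed and 7 no longer passed; the normexp correction, which adds an offset to every signal, made the differences of dim genes smaller.

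The number of genes called over all genes moved more. The main count and the range over the alternatives were 1797 (2 to 2783) without 4PBA and 8 (0 to 1046) with 4PBA in the Derlin-1 line, 6 (0 to 193) and 5 (0 to 25) for 4PBA in Derlin-1 KO and control arrays, and 2 (0 to 31) for the difference of the KO effects. In the Derlin-2 line they were 20 (2 to 92) with vehicle, 23 (7 to 65) with 4PBA, 23 (6 to 1843) and 22 (0 to 1279) for 4PBA in KO and control arrays. For the difference between lines they were 11 (0 to 198), and between the Derlin-1 series 1 (0 to 32). Signal over background limits Cxcl9, Ccl3 and Ccl4 most, and 2 arrays a group limit every comparison.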
